A study of Mus musculus with 8 samples.

Results

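Pancreatic islets at the last time point of a mouse model of autoimmune diabetes were compared between animals left to become diabetic and animals protected by neutralising interferon-gamma. Both cohorts were NOD.Scid mice, which lack T and B cells of their own, and both received diabetogenic CD4+ T cells carrying the BDC2.5 transgenic receptor at day 0 and were killed on day 8. The protected cohort had in addition been given an anti-Ifng antibody 1 day before the transfer and again on day 2, and the labels name no control antibody for the other cohort. Each cohort is 1 array made from RNA pooled from 5 mice, so neither value has a replicate and no test between the arms was possible. Islets were cut out of methanol-fixed, eosin-stained frozen sections with a laser, and about 30 ng of RNA was amplified before hybridisation. The series holds 6 further arrays: untreated mice, both arms on days 3 and 4, and the protected arm on day 5, when the islets of the other arm were too swollen to dissect. Of 18194 genes with a probe set of their own, 5068 had an intensity of at least 10 on at least 1 of the 2 arrays of day 8 and are described here. Of these, 1982 reached that level on both arrays, 1463 on the diabetogenic array alone and 1623 on the protected array alone.

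The transferred T cells recognise a protein of beta cell secretory granules, enter the islets and recruit macrophages. Interferon-gamma, a cytokine of activated T cells, acts through JAK kinases to induce guanylate-binding proteins, immunity-related GTPases, chemokines that attract T cells, and the genes of antigen presentation. It also drives macrophages towards a classical state marked by inducible nitric oxide synthase, while cytokines of type 2 immunity drive an alternative state marked by arginase 1, the chitinase-like protein Chil3 and the secreted protein Retnla.

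The printed level of a gene is the deposited intensity of 1 probe set, a scale on which one gene's level cannot be set against another's. A difference is log2(intensity + 2) on the diabetogenic array minus the same on the protected array, and folds are read off the same scale, where the 2 added to each intensity shrinks the contrast of dim genes. The 2 arrays had similar backgrounds, with a median intensity of 3.96 over all probe sets for the diabetogenic and 3.56 for the protected array. The protected array carried more bright signal, with a 99th percentile of 85.2 against 68.2. Amplification left both with strong 3' bias: the 3' to 5' intensity ratio of the Actb control probe sets was 13.8 on the diabetogenic and 10.5 on the protected array, and that of Gapdh was 19.0 and 10.8. The hybridisation controls had median intensities of 1242 and 1191 on these arrays and from 468.2 up on all 5 arrays of days 4 to 8, but only 1.63 to 2.19 on the untreated array and both arrays of day 3. The part of these array properties in the gene differences was not tested.

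In diabetogenic islets of day 8, markers of alternative macrophage activation, exocrine enzymes, lipid synthesis and dendritic cells stood at lower intensities than in protected ones. Most of the lower dendritic cell and alternative activation markers, and several lipid synthesis genes, were kept through the protected array alone. The filter allowed those only a lower value. Several complement and acute phase genes stood higher, as did inducible nitric oxide synthase, which was dim at 12.4 on the diabetogenic array. Its list of classical activation genes was split, with 3 of 8 higher and 3 lower. The brightest transcripts of the infiltrated islet, some of them named here after their values were seen, lay within 2-fold between the arms. Rpsa read 1176 in the diabetogenic and 1861 in the protected islets, and Tmsb10 882.6 and 1304. Ins2, the insulin gene that was the brightest on both arrays, read 3409 in the diabetogenic and 3779 in the protected islets. H2-Aa, which encodes a chain of the class II molecule that presents peptides to CD4+ T cells, read 2533 and 2792, against 93.7 in untreated islets, although its other probe sets at 10 or more differed by between -2.07 and 0.10. Csf1r, the receptor for the macrophage growth factor, read 1067 and 819, against 23.9 untreated. The lysosomal genes Grn (1534 and 1539) and Npc2 (1195 and 1287), the lectin Lgals1 (1159 and 1182, against 19.5 untreated) and the intermediate filament gene Vim (910.3 and 1195) were likewise within 2-fold of each other, although the other probe sets of Vim differed by -1.92 to -1.58. H2-Aa, Csf1r and Lgals1 were far above the untreated level in both arms.

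Over all 5068 genes the median difference was -0.23 with an SD of 1.17 across genes. At least 2-fold higher intensities on the diabetogenic array were found for 908 genes (17.9%) and at least 2-fold lower ones for 1204 (23.8%), leaving 2956 within 2-fold. The count of any gene list below is to be read against these 2 shares. At 4-fold the counts were 197 (3.89%) higher and 233 (4.6%) lower, and at 8-fold 9 (0.178%) and 11 (0.217%). The higher genes were mostly dim: 779 of the 908 lay between 10 and 20 on the diabetogenic array, and 874 were under 10 on the protected array. For 812 of the 908, the diabetogenic array of day 8 was also the highest of all 8 arrays, which is partly built in by picking genes high on it. Among the lower genes, the protected array of day 8 was the highest of the 8 for 283 of 1204, and 1012 were under 10 on the diabetogenic array. A gene kept through 1 array alone can only be higher on that array. As a measure of how far 2 arrays of the protected arm can lie apart, day 8 against day 5 of that arm gave 261 of 5088 genes (5.13%) at least 2-fold higher and 764 (15%) at least 2-fold lower, a comparison that also contains the passage of time.

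**Figure D1:**
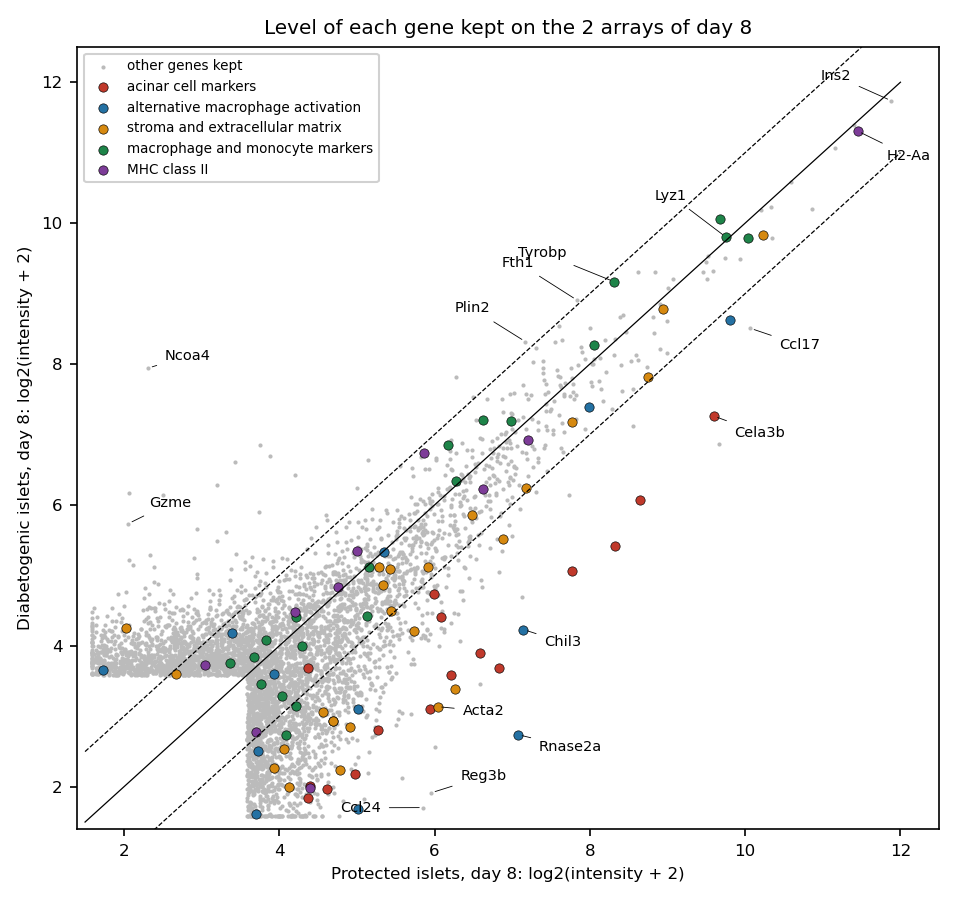
Each point is 1 of the 5068 genes, with log2(intensity + 2) in protected islets on the horizontal and in diabetogenic islets on the vertical axis; the solid line is equality and the dashed lines are 2-fold. Macrophage and class II markers lie along the diagonal, while acinar markers (15 of 16 beyond 2-fold) and several alternative activation genes lie below it.

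How well 2 probe sets of the same gene agreed depended on brightness. Among kept genes with a second probe set at 10 or more, the gap between its difference and that of the probe set used had an SD of 1.47 where the brighter array read 10 to 20 (396 genes), 1.42 at 20 to 50 (300 genes), 1.11 at 50 to 200 (182 genes) and 0.73 at 200 or more (59 genes). Both had the same sign in 49.0%, 58.3%, 72.5% and 79.7% of these genes. Over all levels, the second probe set of the 258 lower genes that had one was of the same sign in 133, and it was past 2-fold the same way in 76 and the other way in 77. For the 49 higher genes with one, it was of the same sign in 33, with 26 past 2-fold the same way and 6 the other way. At an intensity of 50 or more, 549 genes remained, of which 18 (3.28%) were at least 2-fold higher and 95 (17.3%) lower. Of the 95, 37 had a second probe set, which was of the same sign in 31 and past 2-fold the same way in 21. Of the 18, 3 had one, and it was of the same sign in 0 of the 3. A gene's value is therefore given with that of its other probe sets at 10 or more where those turn the direction or fall within 2-fold.

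**Figure D2:**
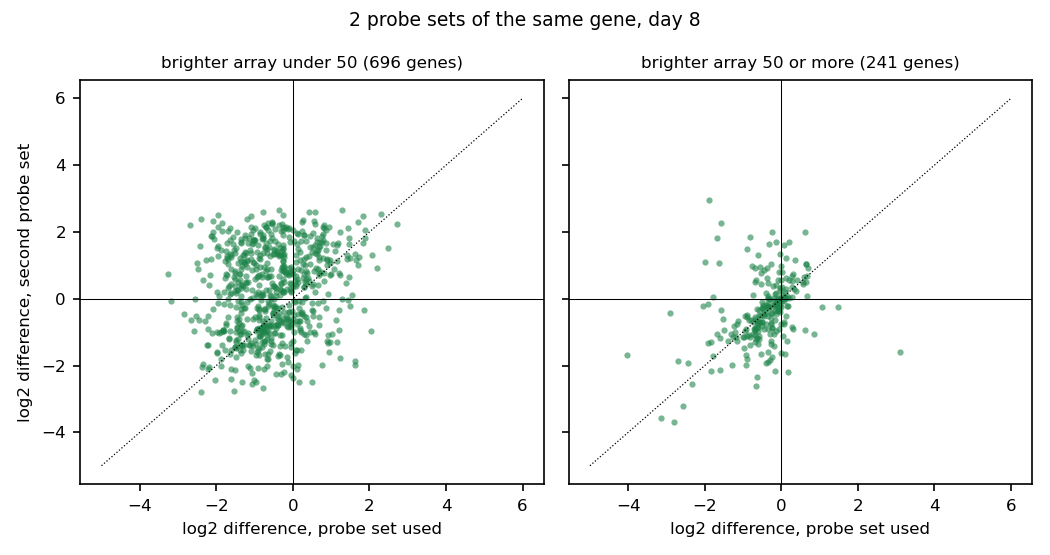
Difference (diabetogenic minus protected, log2) of the probe set used on the horizontal axis and of a second probe set of the same gene on the vertical axis, for 696 genes under 50 and 241 genes at 50 or more on the brighter array; the dotted line is equality. The left cloud has no clear slope, and the right cloud lies closer to the line, with exceptions on both sides.

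Genes of alternative macrophage activation were lower in the diabetogenic islets. Of 13 members kept, 8 were at least 2-fold lower and 1 higher, with a median difference of -1.22 against -0.23 over all genes. Of the 8 lower, only Chil3 and Tgm2 reached 10 on both arrays. The rest were kept through the protected array alone, so the filter allowed them only a lower value. The 1 higher member, Alox15, was kept through the diabetogenic array alone. Rnase2a, a ribonuclease of the eosinophil-associated family, had the largest negative difference of any gene, reading 4.68 on the diabetogenic and 133.0 on the protected array (difference -4.34, 20.2-fold); untreated islets read 2.35 and protected islets of day 5 read 259.6. Chil3 read 16.8 against 139.5 (difference -2.91), and protected islets of day 5 read 449.0. Retnla read 1.21 against 30.4 (-3.34), and Arg1, which breaks down arginine, 1.07 against 11.0 (-2.08). Tgm2, the crosslinking enzyme transglutaminase 2, was bright in both arms at 392.9 and 893.4 (-1.18, with -1.29 to 0.24 for its other probe sets). The protected arm was the higher on day 8 for each of these 5 genes, and its level of all 5 had been higher still on day 5. The exception was Alox15, a lipoxygenase, at 10.7 against 1.33 (1.93). Il4ra, the receptor chain for interleukin 4, differed by -0.34 and Pdcd1lg2, a ligand of the inhibitory receptor PD-1, by -0.02.

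The promoter of Retnla is shown because, of the lower genes in this list, it was the one with the largest difference whose 250 bases upstream of the transcription start held a searched motif; Rnase2a was passed over because its promoter held none. It lies at chr16:48842359-48842608 on the plus strand of GRCm38.p6 (RefSeq), and the capitals mark a match to the palindrome TTCNNNNGAA that begins 145 bases before the start.
Retnla: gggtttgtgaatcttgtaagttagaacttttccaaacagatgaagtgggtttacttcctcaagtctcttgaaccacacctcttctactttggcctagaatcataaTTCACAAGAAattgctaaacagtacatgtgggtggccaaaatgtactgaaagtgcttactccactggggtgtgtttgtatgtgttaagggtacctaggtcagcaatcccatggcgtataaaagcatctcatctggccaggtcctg

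Several CC chemokines were lower in the diabetogenic islets. Of 12 CC chemokines and receptors kept, 7 were at least 2-fold lower and 2 higher (median -1.27). Ccl24, a chemokine that attracts eosinophils, read 1.26 on the diabetogenic and 56.0 on the protected array (-4.15, 17.8-fold), with 1.12 in untreated islets. Its level in the protected arm had been 658.7 on day 5. Ccl17, a ligand of the chemokine receptor CCR4, read 362.2 against 1069.6 (-1.56), having stood at 3667 in the protected arm on day 5. Ccl8 read 9.56 against 41.4, Ccl9 11.0 against 37.1, Ccl11 8.54 against 27.6, Ccl22 6.06 against 18.8 and Ccl6 30.1 against 70.1 (-1.17, and -0.76 for its other probe set). Ccl4 and Ccl2 went the other way, at 12.1 against 3.02 (1.48) and 11.5 against 4.55 (1.04), and Ccl5, a chemokine made by effector T cells, read 297.1 against 156.5 (0.92). The list of CXC chemokines and their receptor Cxcr3 had 4 kept and a median of 0.78, which ranged from -0.26 to 1.11 over the processing settings tried, with 1 past 2-fold, Cxcl14, at 39.5 against 18.5 (1.01). Cxcl16 read 31.7 against 15.9 and its difference was 0.92.

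Dendritic cell markers had 6 of 8 members at least 2-fold lower in the diabetogenic islets, with 1 higher (median -1.68). Fscn1, the actin-bundling protein of mature dendritic cells, read 8.98 against 94.4 (-3.13), and Itgax, the integrin CD11c, 4.32 against 30.2 (-2.35). The 3 other probe sets of Fscn1, all under 10 on both arrays, differed by -0.88 to 0.49. Itgae read 5.39 against 23.8 and Cd209a 6.60 against 30.4. Fscn1, Itgax, Itgae, Cd209a and Ccl22 were under 10 on the diabetogenic array and were kept through the protected array alone. Xcr1, a chemokine receptor of cross-presenting dendritic cells, was higher at 11.0 against 3.09 (1.35). Ccl17 and Ccl22 are counted both here and among the chemokines, and Cd209a among the alternative activation genes as well. In pooled tissue of this kind, fewer cells of a type and less RNA per cell cannot be told apart.

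General markers of macrophages were nearly level. Of 20 kept, 0 were at least 2-fold higher and 2 lower (median 0.12). The summed intensity of the whole list was 4391 in the diabetogenic and 3904 in the protected islets, against 324.3 in untreated ones. Such a sum is weighted towards the brightest probe sets, such as those of Csf1r and Lyz1, and does not measure the number of macrophages. Lyz1, a lysozyme, read 891.3 and 860.4, and Tyrobp, the adaptor of myeloid activating receptors, 573.7 and 315.7 (0.86). The 2 lower members were dim: Aif1 at 4.68 against 14.9 and Adgre1, the F4/80 antigen, at 6.85 against 16.5. Lysosomal and phagocytic genes were also near level, with 4 of 22 lower and 0 higher (median -0.07). Neutrophil markers were few, with 4 kept and 0 past 2-fold.

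Classical activation genes were mixed, with 3 of 8 higher and 3 lower (median 0.36). Nos2, the inducible nitric oxide synthase, read 12.4 on the diabetogenic and 1.12 on the protected array (2.21), and 3.38 in untreated islets. It had no other probe set and lay in the 10 to 20 range, where 2 probe sets had the same sign in 49.0% of genes. Fpr2, a receptor for bacterial and acute phase peptides, read 35.9 against 5.46 (2.34). Saa3, a serum amyloid A protein, read 53.4 against 22.5 (1.18). Acod1, which makes itaconate, was lower at 6.28 against 21.7 (-1.52), as was Cybb, the oxidase subunit of phagocytes, at 4.98 against 16.7 (-1.42). Of the complement and acute phase genes, 4 of 14 were higher and 0 lower (median 0.24): Cfb, factor B of the alternative pathway, at 34.4 against 9.75 (1.63), C1s1 at 10.4 against 2.47, Hp, haptoglobin, at 35.6 against 15.1, and Saa3. In the oxidative stress and iron list, 3 of 15 were higher, a share near the 17.9% of all genes, and 0 lower. They include Fth1, the ferritin heavy chain, at 478.1 against 226.4 (1.07, but -0.26 for its other probe set), and Slc7a11, the cystine transporter, at 11.7 against 3.48 (1.32).

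The 18 bright genes that were higher in the diabetogenic islets include a few with a known part in myeloid cells or lipid storage, named here after their values were seen. Lst1, a transmembrane protein of leukocytes, read 223.4 against 75.8 (1.53), with 64.0 in protected islets of day 5. Hk3, a hexokinase of myeloid cells, read 97.3 against 33.5 (1.49, but -0.25 for its other probe set), and Plin2, which coats lipid droplets, 317.2 against 142.1 (1.15), with 158.2 in the protected arm on day 5. Rarres2, the precursor of the chemoattractant chemerin, read 73.9 against 30.1 (1.24), and Ifitm2, a membrane protein inducible by interferon, 183.9 against 88.0 (1.05). For all 18 genes the diabetogenic array of day 8 was the highest of the 8 arrays. This is partly built in, since they were picked for a high value on that array.

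Genes induced by interferon-gamma were close to level between the arms by day 8. Cxcl9, the ligand of CXCR3 and a textbook target of interferon-gamma, read 89.3 in the diabetogenic and 56.8 in the protected islets (0.63, and 1.05 for its other probe set), against 1.2 in untreated ones. The protected arm had read 8.6 on day 3, 3.50 on day 4 and 15.2 on day 5. Among the guanylate-binding proteins and immunity-related GTPases, which attack vacuoles that hold microbes, 6 were kept, with 1 higher, 1 lower and a median of 0.24. Gbp2 read 72.5 and 83.1, although its other probe set differed by -1.42, and Igtp 53.2 and 37.3. The 2 past 2-fold were Gbp6, at 30.8 against 12.2 (1.21), whose other probe set differed by -0.33, and Iigp1, at 8.73 against 22.6 (-1.19). Irf1, an interferon-induced transcription factor, read 21.1 and 15.6 (0.39). Ifng itself was under 10 in both arms at 3.80 and 7.62, as was Cxcl10 at 6.14 and 6.02.

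The signalling genes of this pathway had lower values in the diabetogenic arm for 4 of 8 members kept, with 0 higher (median -0.91). These were Ptpn2, a phosphatase that dampens JAK signals, at 4.19 against 27.5 (-2.25), Stat3 at 2.92 against 21.0 (-2.23), Jak2 at 7.52 against 26.3 (-1.57) and Socs3, a feedback inhibitor, at 13.6 against 37.2 (-1.33). All 4 lay under 50 on both arrays, the range in which probe sets of one gene often disagreed. Of the type I interferon-stimulated genes, 5 were kept, with 0 higher and 1 lower, Oas1a at 14.6 against 31.5 (median 0.28).

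The promoter of Igtp is printed as the counterpart among interferon genes: of those with a positive difference it had the largest whose upstream 250 bases held a searched motif, after Gbp6, for which the promoter table had no entry, and Cmpk2, Ddx58 and Ifi47, in which no motif was found. It lies at chr11:58199306-58199555 on the plus strand of GRCm38.p6 (RefSeq). The first capitals, 45 bases before the start, match the gamma-activated palindrome TTCNNNGAA, and the second, 34 bases before it, match the interferon-response core TTTCNNTTTC on the other strand, with no overlap between them.
Igtp: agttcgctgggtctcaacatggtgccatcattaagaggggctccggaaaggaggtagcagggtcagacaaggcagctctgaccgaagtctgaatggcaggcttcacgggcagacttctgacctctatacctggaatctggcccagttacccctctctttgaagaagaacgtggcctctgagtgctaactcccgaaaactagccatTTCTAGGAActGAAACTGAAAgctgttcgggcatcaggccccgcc
The background frequency of these letters was as follows. TTCNNNGAA, read on both strands, stood in 8.30% of 32851 promoters of that length, in 8.28% of the kept genes with a promoter, and in 8.74% and 7.56% of the genes at least 2-fold higher and lower. The corresponding shares for TTCNNNNGAA were 6.95%, 7.22%, 8.17% and 7.87%, and for TTTCNNTTTC 3.44%, 3.91%, 4.01% and 3.36%. These are counts of letters and say nothing about binding.

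Antigen presentation was also near level. For class II, 1 of 10 was lower and 0 higher (median -0.03): H2-Ab1 read 104.5 and 56.5 (0.86, but -1.06 for its other probe set), H2-Eb1 26.5 and 25, and the invariant chain Cd74 20.4 and 16.4. The lower one was Cd86, the costimulatory ligand of CD28, at 1.94 against 19.1 (-2.42). For class I, 1 of 9 was higher and 1 lower (median 0.03). Psmb8, a subunit of the immunoproteasome, read 32.2 against 9.76 (1.54, but 0.13 for its other probe set), and Calr, a chaperone of peptide loading, 24.3 against 63.9 (-1.32, with -1.06 to -0.59 for its others). B2m, the class I light chain, read 38.9 and 63.0 (-0.67), while its other probe set differed by 0.57.

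**Figure D3:**
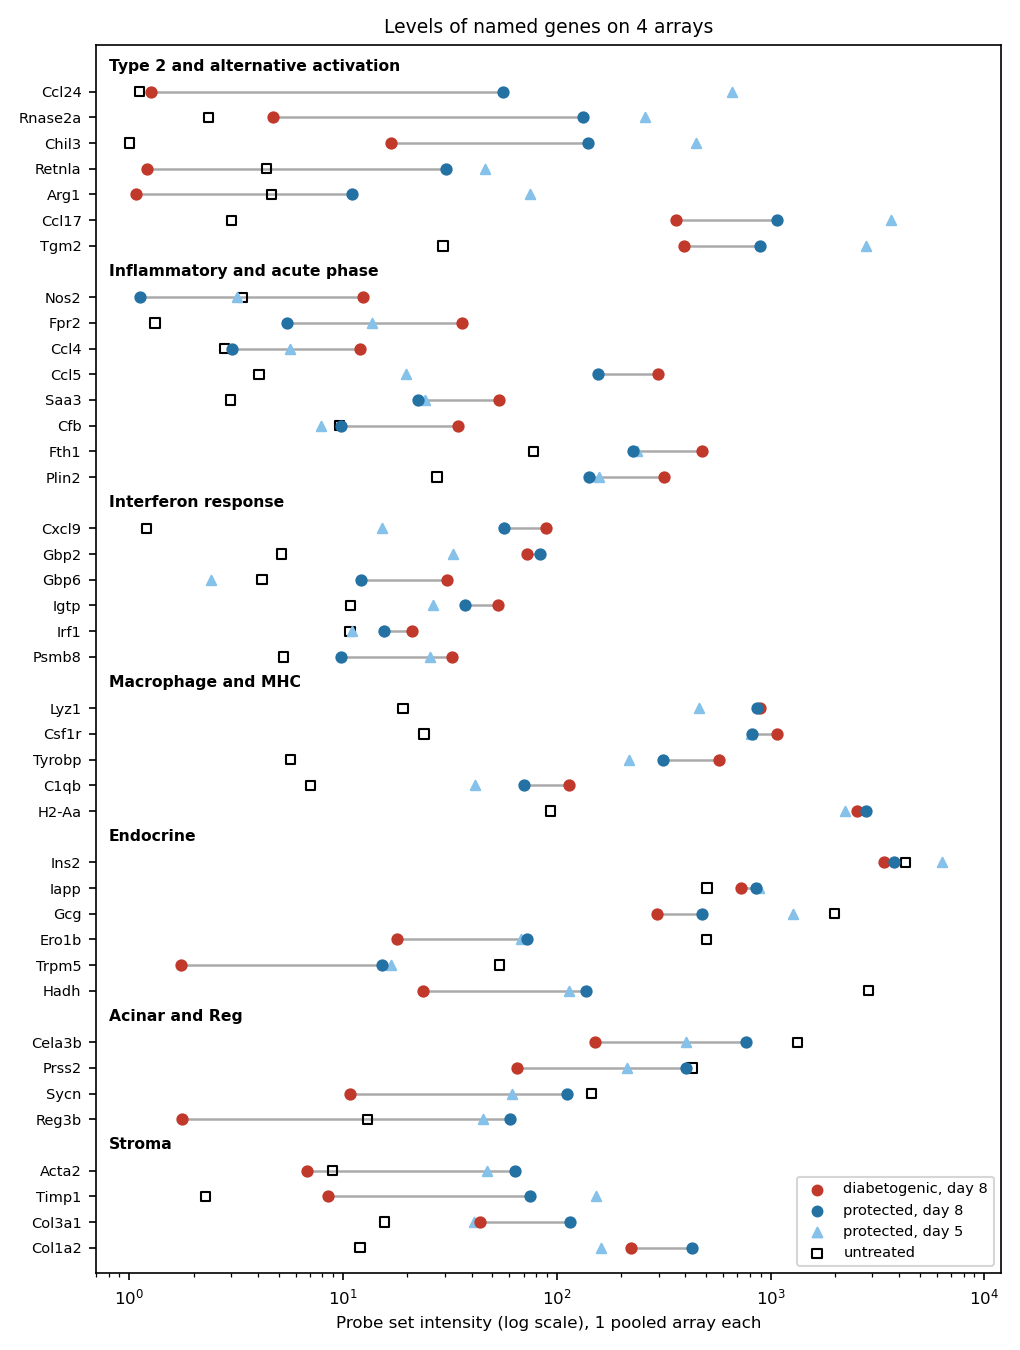
Intensity on a log axis of named genes in diabetogenic (red circles) and protected (dark blue circles) islets of day 8, protected islets of day 5 (triangles) and untreated islets (open squares), 1 pooled array each. Ccl24 and Reg3b are near or below the untreated level in diabetogenic islets, Cxcl9 and H2-Aa are above it in both arms, and Hadh is below it in both.

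The T cell markers of the list were dim in both arms, and Cd4, the coreceptor of the transferred cells, read 1.44 and 2.06 and was not kept. Outside the list, the T cell receptor gene segment Trav9d-3, named here after its values were seen, was bright. It read 108.4 on the brighter, protected array (-0.61, and -0.84 for a second probe set). Of 6 T cell markers kept, 1 was lower and 0 higher (median -0.62), and Cd3e, a chain of the T cell receptor complex, read 9.71 and 19.0 (-0.84). The lower one was Bcl11b, a transcription factor of T cells, at 1.4 against 16.3 (-2.43). The list of T helper effector genes had 2 of 5 higher and 0 lower (median 0.69), Il3 at 10.6 against 1.74 and Gzmk at 15.3 against 4.23. Tbx21, which directs the interferon-gamma producing lineage, read 22.9 and 40.6 (-0.78). Costimulatory and inhibitory receptors had 1 of 8 higher, Vsir at 35.6 against 11.9 (1.44), and 2 lower (median -0.39), while Cd274, the ligand PD-L1, read 9.23 and 11.0. B and NK markers numbered 4, with 1 higher, Klrk1, the receptor NKG2D, at 13.9 against 2.46, and 2 lower.

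Granzyme E was among the 12 genes with the largest positive differences. Gzme, a serine protease of cytotoxic granules, read 51.3 on the diabetogenic array (3.68) and no more than 4.95 on any of the other 7. Granzyme genes were then looked at together, a choice made after this value was seen. Gzmg followed the same pattern, at 26.4 against 2.84 (2.55), and Gzmk is given above. Gzma (4.74 and 5.44) and Gzmb (2.16 and 4.44), the granzymes best known in killer cells, were under 10 in both arms. Gzme and Gzmg are close copies of each other and the probe set of Gzme is of the kind that can also bind related transcripts, so the 2 values are not independent.

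The other genes at the top of the diabetogenic side share no fixed list. Ncoa4, which delivers ferritin to the lysosome, had the largest difference of all at 244.1 against 2.97 (5.63), and it read 16.2 or less on the other 7 arrays. The second probe set of Ncoa4 differed by 0.34. Itgb8, an integrin chain, read 70.2 against 2.18 (4.11), Tasor 68.7 against 3.67, Gfus, an enzyme of GDP-fucose synthesis, 95.4 against 8.83, Prr36 76.2 against 7.19 and Anapc11 35.3 against 2.20. Ube3a, a ubiquitin ligase, read 112.9 against 11.5 (3.09), while another probe set of it at 10 or more differed by -1.60. Zfp959, Cryba4, Pvalb and Guca2b completed the 12, at 20.3 to 37.1 on the diabetogenic array. Genes such as Pvalb, a calcium buffer of neurons and muscle, and Guca2b, a gut peptide, are not usual islet transcripts, and each was seen on this array alone. On the lower side, Myo1g, Fbxw9, Celf2, Mcoln1, Limd1 and Rbbp5 were the members of the 12 outside any list, at 1 to 3.94 on the diabetogenic and 21.4 to 62.2 on the protected array; the other probe sets of Celf2 differed by -0.57 to 0.73.

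Endocrine genes gave a divided picture. The most abundant beta cell products were nearly level, Ins2 as above and Iapp, islet amyloid polypeptide, at 724.6 and 850.8 (-0.23, with -0.24 to 0.70 for its other probe sets). Of 8 beta cell identity genes kept, 4 were lower and 0 higher (median -0.68): Trpm5, a cation channel, at 1.73 against 15.3 (-2.20), Ero1b, an oxidase of proinsulin folding, at 18 against 72.5 (-1.90), Pdx1, the transcription factor of beta cells, at 1.33 against 10.3 (-1.89), and G6pc2 at 4.09 against 10.5. The value for Pdx1 depends on the probe set: the one brightest on day 8 alone gave 1.46. The other 17 beta cell genes measured were under 10 in both arms. Against untreated islets, 19 of 22 beta cell genes were at least 2-fold lower in each arm, with medians of -3.51 (diabetogenic) and -2.73 (protected). Ero1b was one, at 503.5 in untreated islets. Over all genes, 43.9% (diabetogenic) and 34.8% (protected) were at least 2-fold lower than untreated. Most of the 22 were under 10 in both arms of day 8. They were kept through the untreated array alone, so the filter allowed them only a lower value. Hadh, a mitochondrial enzyme enriched in beta cells and named here after its values were seen, read 23.8 and 137.5 (-2.44), against 2864 in untreated islets.

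Among granule and prohormone processing genes, 4 of 10 were lower and 1 higher (median -0.79), with Syt7, a calcium sensor of exocytosis, at 4.40 against 25.5 (-2.10, with -1.03 to 0.83 for its other probe sets) and Chga, chromogranin A, at 38.0 against 57.5 (-0.57). The non-beta endocrine list was split, with 3 of 9 higher and 3 lower (median 0.64). Gcg, which encodes glucagon, read 295.7 and 477.3 (-0.69), against 1996 untreated, and Pyy, a peptide of PP and alpha cells, 136.6 and 375.9 (-1.45). The higher members were dim and low in untreated islets: Irx2 at 15.8 against 1.25 (2.45), Pou3f4 at 13.3 against 3.52 and Ghrl at 14.5 against 4.60. Slc7a2, an arginine transporter, was lower at 1.71 against 22.7 (-2.73).

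Exocrine enzymes were lower almost throughout. Of 16 acinar markers kept, 15 were at least 2-fold lower in the diabetogenic islets and 0 higher, with a median of -2.61. Cela3b, an elastase, read 151.5 against 771.7 (-2.33), and its other probe sets differed by -3.72 to -0.41. Clps, the cofactor of pancreatic lipase, read 40.7 against 318.5 (-2.91, but -0.43 for its other probe set), Prss2, a trypsinogen, 65.3 against 400.3 (-2.58, with -3.22 to -0.91 for its others), and Sycn, a zymogen granule protein, 10.8 against 111.3 (-3.14, and -3.56 for its other probe set). The exception was Rnase1 at 10.9 against 18.7 (-0.68). Summed over the whole marker list, intensity was 421.5 in diabetogenic and 2362 in protected islets, compared with 3803 in untreated islets and 1480 in the protected arm on day 5. The diabetogenic array was the lowest of these 4, in a sum that is weighted towards the brightest probe sets. The labels do not say how much acinar tissue each capture took in, and its part in the difference was not tested. The Reg proteins, secreted by acinar and regenerating islet cells, had 3 of 3 lower (median -2.68), with Reg3b at 1.77 against 60.1 (-4.04, and -1.69 for its other probe set) and Reg1 at 1.5 against 20.5. All 3 were under 10 on the diabetogenic array and were kept through the protected array alone, so the filter allowed them only a lower value. Duct markers were near level, with 0 of 4 past 2-fold (median 0.30), such as Krt8 at 26.8 and 19.9 (0.40, with -0.50 to 0.62 for its other probe sets).

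The list of stroma and extracellular matrix had 11 of 24 members at least 2-fold lower in the diabetogenic islets and 1 higher (median -0.94). Acta2, the smooth muscle actin of myofibroblasts and vessel walls, read 6.8 against 63.8 (-2.90), Timp1, an inhibitor of matrix proteases, 8.48 against 74.7 (-2.87), Ccn2, a matricellular growth factor, 2.74 against 25.5 (-2.54), and Tagln 2.00 against 15.5. The other probe sets of Acta2, all under 10 on both arrays, differed by 0.03 to 0.06. Among the collagens, Col3a1 read 43.7 against 116.0 (-1.37) and Col1a1 32.6 against 58.5 (-0.81), each above the untreated level of 15.7 and 3.58. Lox, which crosslinks collagen, was the higher member at 17.1 against 2.06 (2.23). Endothelial genes had 3 of 7 lower and 1 higher (median -0.56). The lower ones were Kdr and Flt1, the receptors for vascular endothelial growth factor, at 1 against 14.4 and 1.16 against 11.1, and Ramp3. Selp, the selectin that captures leukocytes, was higher at 10.6 against 2.67 (1.43). Kdr and Flt1 were kept through the protected array alone and Selp through the diabetogenic array alone, so the filter fixed the direction of each.

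**Figure D4:**
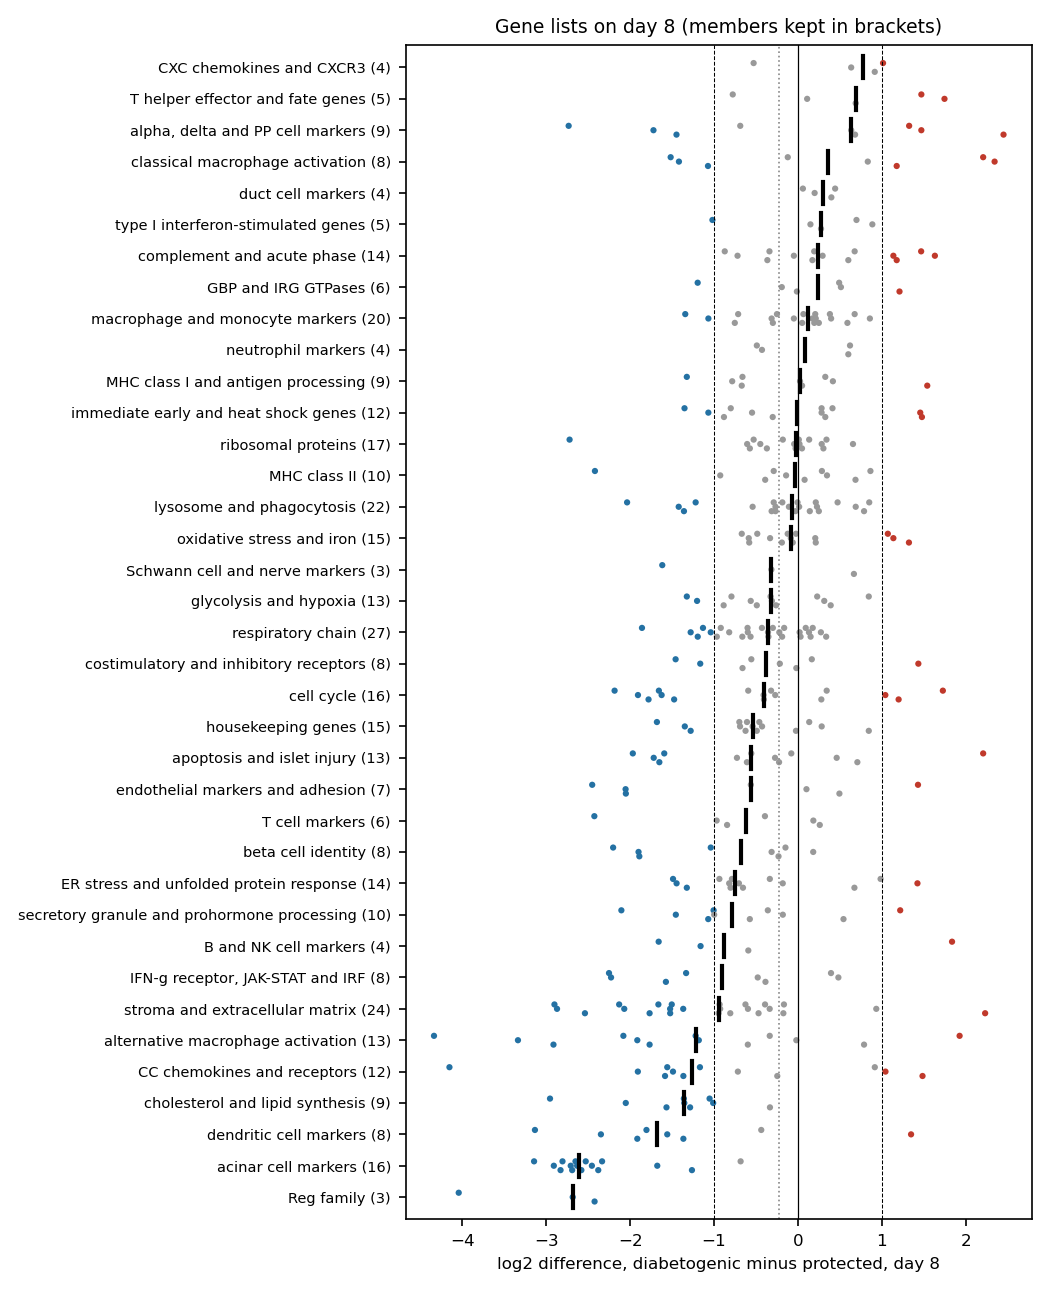
Difference on day 8 (log2, diabetogenic minus protected) for every kept member of the 37 lists with at least 3 kept, ordered by list median (black bars); red and blue points are at least 2-fold higher and lower, and the dotted line is the median of all genes, -0.23. Acinar, Reg and dendritic lists lie to the left, and no list has its median beyond 2-fold on the right.

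Genes of lipid synthesis were lower in the diabetogenic arm. Of 9 genes of cholesterol and fatty acid synthesis kept, 8 were at least 2-fold lower and 0 higher (median -1.35). Scd2, a fatty acid desaturase, read 2.56 against 33.3 (-2.95), Fasn, fatty acid synthase, 1.65 against 13.1 (-2.05) and Fdft1, squalene synthase, 2.41 against 11.1 (-1.57, but 1.64 for its other probe set). The brighter Acly, which supplies acetyl-CoA, read 43.7 against 109.4 (-1.28), and untreated islets read 253.4. Mvd is among the 8, at 10.3 against 29.6 (-1.36), but changed sign with quantile normalization (0.45) and without probe sets that can bind several transcripts (0.32). Only 2 of the 9 kept, Acly and Hmgcs1 (32.7 against 67.9, -1.01), reached 50 on either array. Scd2, Fasn, Fdft1 and Acaca were kept through the protected array alone, so the filter allowed them only a lower value. Among lower genes at 10 to 20, the second probe set had the same sign in 38 of 117. Lpl, the lipase that releases fatty acids from lipoproteins, read 4.19 against 23.4 (-2.04).

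Lists of general cell functions gave the following counts. Ribosomal protein genes had 1 of 17 lower and 0 higher (median -0.03), and the 1 was Rps9, which was dim for this probe set. Respiratory chain genes had 5 of 27 lower and 0 higher (median -0.36), with Ndufb5, a subunit of complex I, at 6.74 against 29.7. Glycolysis and hypoxia genes had 2 of 13 lower and 0 higher (median -0.33). Genes of the unfolded protein response had 3 of 14 lower and 1 higher (median -0.74), Ddit3, the factor CHOP, at 3.19 against 12.6 and Trib3, its target, at 15.0 against 4.33 lying on opposite sides. Cell cycle genes had 6 of 16 lower and 3 higher (median -0.41), with Pcna, the replication clamp, at 3.29 against 22.1 and Bub1b, a spindle checkpoint kinase, at 14.1 against 2.86. Apoptosis genes had 4 of 13 lower and 1 higher, Nos2 (median -0.56); Bcl2l11, the death protein BIM, read 3.17 against 18.2 and Casp8 3.60 against 15.6. Immediate early genes had 2 of 12 on each side (median -0.01), and nerve markers 1 of 3 lower. Housekeeping genes had 3 of 15 lower and 0 higher (median -0.54), both shares below those of all genes. Actb read 176.2 and 285.5 (-0.69, with -1.21 to -0.26 for its other probe sets) and Gapdh 100.3 and 55.0 (0.84). No red blood cell gene of 6 measured was kept.

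Set against untreated islets, the 2 arms of day 8 used the same untreated array, and their values are given side by side. The diabetogenic array had 1605 of 6212 genes (25.8%) at least 2-fold above and 2730 (43.9%) at least 2-fold below untreated. The protected array had 1077 of 5639 (19.1%) above and 1965 (34.8%) below. Class II genes were above untreated in both, for 7 of 8 and 9 of 9, and macrophage markers for 14 of 17 and 15 of 19. Acinar markers were below untreated for 24 of 24 in the diabetogenic and 13 of 24 in the protected islets, with medians of -3.17 and -1.23. CC chemokines and receptors were above for 8 of 8 and 10 of 10. All of them were under 10 in untreated islets, so those kept passed through the day 8 array and could only be above. Some acinar markers were kept through the untreated array alone and could only be below. One was Amy1, at 40.4 in untreated, 1.4 in diabetogenic and 1.65 in protected islets.

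The pairs of days 3 and 4 share no array with day 8. On day 3, 133 of 4805 genes (2.77%) were at least 2-fold higher in the diabetogenic arm and 44 (0.916%) lower, and on day 4, 431 of 3846 (11.2%) and 1488 (38.7%). Of the 44 genes lower on day 3, 18 (40.9%) were lower on day 8 as well, which is 1.5% of the 1204 of day 8, where 23.8% of all genes kept were lower. Of the 133 higher on day 3, 5 (3.76%) were higher on day 8, or 0.551% of the 908, where 17.9% of all genes kept were higher. For day 4 the shared lower genes were 341, making up 22.9% of that day's and 28.3% of day 8's. The shared higher genes were 29, or 6.73% of that day's and 3.19% of day 8's. The shares of day 3 and day 4 genes count those genes whether or not they were kept on day 8. The 17.9% and 23.8% are shares of genes kept on day 8 only, so the 2 kinds of share cannot be ranked against each other. The day 4 diabetogenic array was the dimmest of the series, with a 99th percentile of 25.6, and both arrays of day 3 lacked the bright hybridisation controls of the later days; the part of either in the differences between days was not tested.

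The genes lower in the diabetogenic arm on all 3 days numbered 17. They were Rnase2a, Ccl24, Retnla, Chil3, Arg1, Fn1 and Tgm2 of alternative activation or type 2 responses, the chemokines Ccl9, Ccl17 and Ccl6, the matrix regulator Timp1, Reg3b, the proteoglycan Srgn, and Mcoln1, Psmd13, Olfm1 and Adh1, although on day 8 the other probe sets of Mcoln1 (-0.08) and Psmd13 (1.28) were level or higher. In the order of the 3 days, Ccl24 differed by -4.28, -5.23 and -4.15, and Chil3 by -2.93, -5.88 and -2.91. The only gene higher on all 3 was Gbp6, at 3.05, 2.31 and 1.21. The list of guanylate-binding proteins and immunity-related GTPases had a median of 2.50 on day 3, with 10 of 10 kept past 2-fold. Its median was 1.27 over 5 kept on day 4 and 0.24 over 6 kept on day 8. The members of each list were kept on each day's own pair, so list medians of different days are not of the same genes. Cxcl9 had differences of 3.60, 2.62 and 0.63. Alternative activation had medians of -1.59, -2.06 and -1.22, and acinar markers 0.20, -3.65 and -2.61. With 1 array per arm and day, none of these differences between days could be tested.

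**Figure D5:**
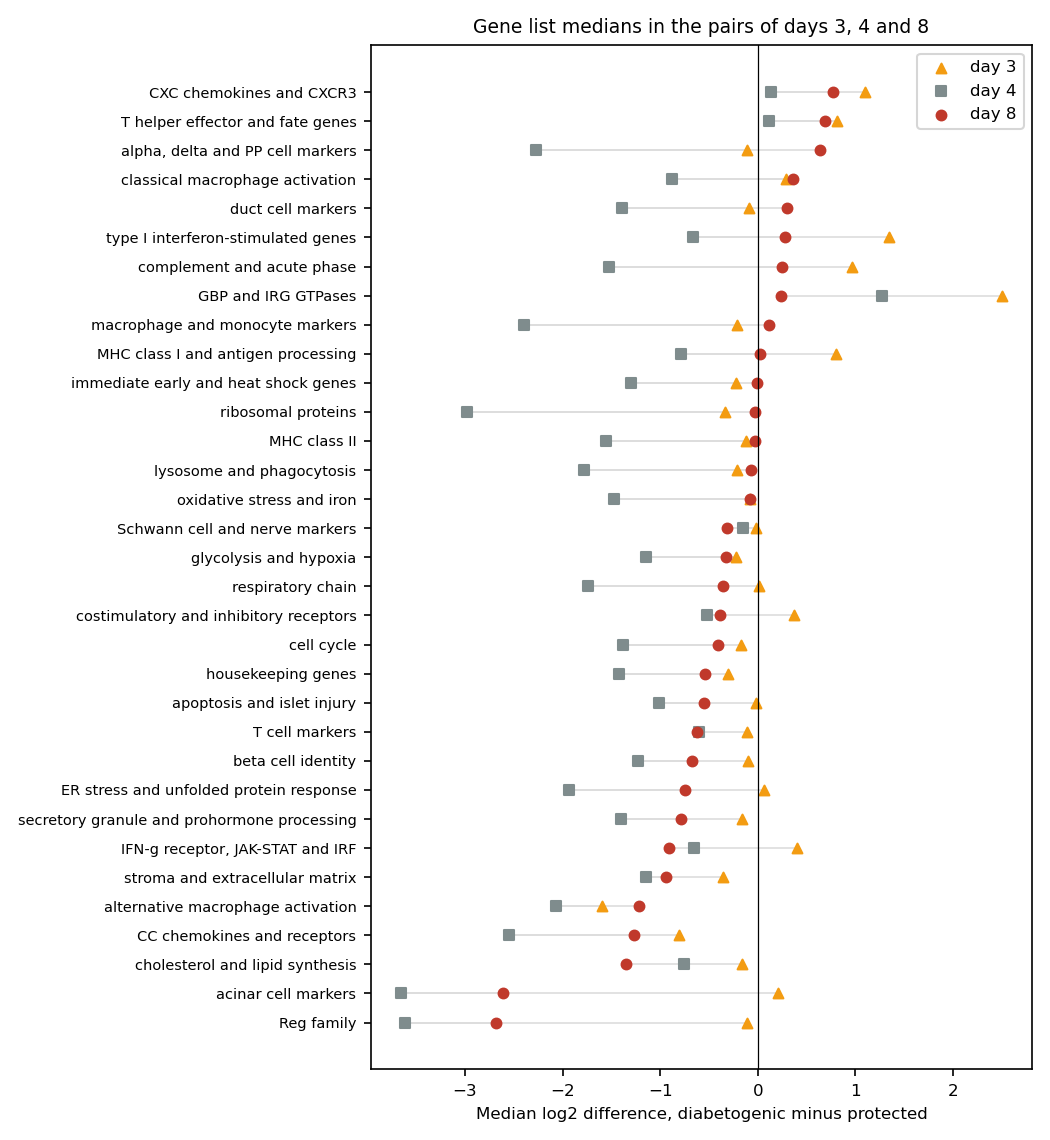
Median difference (log2, diabetogenic minus protected) of the 33 lists with at least 3 members kept on each of days 3 (triangles), 4 (squares) and 8 (circles). Each median is over the members kept on that day's own pair, so the genes behind it differ between days. The GTPase list has a median of 2.50 on day 3 and 0.24 on day 8. The alternative activation list is below 0 in each pair, and most medians are at their lowest on day 4.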

How the data were processed

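Affymetrix mouse arrays were read from the table of intensities that the authors deposited for 45101 probe sets on 8 arrays; the sources used here do not state the summarising and scaling behind them. Probe sets were named from GEO's platform annotation of 2016: 34958 had 1 symbol, 932 several and 9211 none, and only the first were named. Each gene was represented by the probe set with the highest mean over the 8 arrays, and kept at an intensity of 10 or more on either array of day 8. Differences are of log2 values computed here from the deposited intensities after adding 2. The members and the 39 gene lists were chosen with earlier results of these data known; 771 of 884 list genes had a probe set and 376 were kept. Named genes are the 12 largest differences each way, up to 4 per list by size, and a fixed set of 26 genes. Of the fixed set, 2 had no probe set of their own and 4 were not kept. Other genes complete a count or were chosen after their values were seen, and not all of them are marked so where they are named. Among these are Grn, Npc2, Lgals1, Vim, Csf1r and Lyz1. Promoter sequences are RefSeq's (GRCm38.p6), 250 bases upstream. Other pseudocounts, scalings, filters and probe set rules were tried, and the counting was tested on simulated data. Python 3.11.15, pandas 2.3.3, numpy 2.4.6 and statsmodels 0.14.6 were used. The depth of an array cannot be given as counts, and 1 array per arm limits the precision.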

Additional observations from a re-analysis of the deposited data

Results flagged for a closer look

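The list of alpha, delta and PP cell markers had a median difference of 0.64 on day 8 and of -2.27 on day 4, opposite signs in pairs that share no array. The difference between the days was not tested, since each arm of each day is 1 array, and the day 8 median ranged from -1.07 to 0.86 over the processing settings tried, so its sign is not stable. The members that were at least 2-fold higher on day 8, Irx2, Pou3f4 and Ghrl, were all under 20 on both arrays, whereas Gcg and Pyy, which are bright, were lower in the diabetogenic arm on both days (Gcg -0.69 on day 8 and -4.03 on day 4).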

How the results depend on the processing

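The counts of genes at least 2-fold higher and lower (908 and 1204) and the median difference (-0.23) moved most with the filter on intensity. They were 129, 445 and -0.44 at 20 or more on either array, 34, 192 and -0.19 at 10 or more on both arrays, 1933, 2450 and -0.062 with no filter, and 18, 95 and -0.33 at 50 or more, an alternative chosen after seeing the data. A pseudocount of 8 gave 349, 593 and -0.18, and one of 0.5 gave 1039, 1359 and -0.24. Averaging the log2 values of all probe sets of a gene gave 521, 488 and -0.12, and taking the probe set brightest over the 2 arrays of day 8 gave 1257, 1167 and -0.065. Leaving out probe sets ending in _x_at or _s_at gave 898, 1011 and -0.14. Quantile normalization gave 1076, 1446 and -0.12, centring on the median gave 1149, 926 and 0, and a lowess curve gave 926, 1008 and 0.023, a median of the other sign. The higher genes made up 43.0% of the genes past 2-fold in the main setting, 55.4% after centring and 15.0% when both arrays had to reach 10. Of the named genes, 11 crossed 0 in some setting, 6 of them while within 2-fold on both sides. Among the other 5, Mvd became 0.45 with quantile normalization and 0.32 without _x_at and _s_at probe sets, and Pdx1 (1.46) and Msr1 (0.30) crossed with the probe set brightest on day 8, and H2-Ab1 (from 0.86 to -1.06) and Il10ra (from -0.66 to 2.04) without _x_at and _s_at probe sets. The acinar list median ranged from -2.81 to -1.68, that of alternative activation from -2.05 to -0.60 and that of the GTPases from 0.06 to 0.59 over these settings; the medians of the CXC chemokine, classical activation, class I, class II and non-beta endocrine lists, among others, took both signs. The cause of these movements was not tested, apart from the filters, which by construction change which genes are compared. No replicate could be left out. No paired analysis was possible because each arm of day 8 is 1 array and the result comes from no test. Signal near background limits most of the higher genes, since the gap between 2 probe sets of one gene had an SD of 1.47 at 10 to 20.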
